A study of Mus musculus with 4 samples.

Results

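Choroid plexus epithelial genes for receptors, surface enzymes, cell junctions and related products were described in 82 single cells. The set held 9 of the 15305 gene rows of the count table, namely Folr1, Prlr, Ace, Steap1, Rdh5, F5, Krt8, Cldn1 and Cldn2. They had been picked because an earlier look at these counts found them in cells rich in Ttr and Enpp2. Cells were grouped by the share of Enpp2 in their total counts, at or above 1% (32 cells, called Enpp2-rich) or below (50 cells). The contrast between these groups is therefore a description of how the genes were chosen, and no test was run on it.

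The mice were of the Penk-Cre Ai9 line. There the Penk gene drives Cre, which turns on a red reporter protein, tdTomato. The genotype was labelled WT in all samples, and the labels used here give no age. Cells from dissociated tissue of the striatum and subventricular zone (SVZ) were sorted singly by the reporter, with CD11b-positive cells left out in dataset A and kept in dataset B. Any cell with a history of Penk expression would carry the reporter, so it marks no single cell type. For each dataset the labels name 2 cell types, neuroblast and quiescent neural stem cell, and no choroid plexus cell. The column names do not tie cells to these types. The labels name no animals or separate sorts within a dataset, so each dataset counts as 1 sample and differences between datasets have no replicate.

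The choroid plexus is a sheet of epithelial cells that lies in the brain ventricles and makes cerebrospinal fluid. Its cells are joined by tight junctions whose claudins set what passes between them, and they carry receptors and enzymes that move vitamins, hormones and peptides between blood and fluid. Folr1 encodes the folate receptor alpha, which carries folate across this epithelium, and Prlr encodes the prolactin receptor. Ace encodes the angiotensin-converting enzyme, Steap1 a membrane protein of the metalloreductase family, and Rdh5 a retinol dehydrogenase. F5 encodes coagulation factor V, a secreted protein, Krt8 a keratin of simple epithelia, and Cldn1 and Cldn2 are claudins.

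Dataset A held 41 cells on 1 plate with 530630 to 7765650 counts per cell, and dataset B held 41 cells on 4 plates with 1235278 to 3339591. Enpp2-rich cells numbered 16 in each dataset, with median totals of 2267700 counts in A and 2156814 in B. No 2 cells had identical counts. Choroid epithelium markers, a list of 16 genes, were at 10 or more counts in 7 to 14 genes per Enpp2-rich cell of dataset A and in 6 to 13 of dataset B. In the other cells of dataset B, the highest number was 1. The list holds Enpp2, which defined the groups, and Ttr, which went into the choice of the genes, so part of this contrast is set by the grouping. Of 14 neuroblast markers, an Enpp2-rich cell of dataset B had at most 2 and one of dataset A at most 8, in well E10. Another Enpp2-rich cell of dataset A, well F6, had 10 of 11 astroglia and stem cell markers and 6 of the 9 genes, each at 10 or more counts. The part of RNA from a second cell was not tested in either. Ependymal markers went with the grouping in dataset B, and in dataset A only in part. In A, Dynlrb2 and Rsph1 were higher in the Enpp2-rich cells (77.3 against 0.0658 CPM and 191 against 19.3 CPM). Foxj1, Ak7 and Tekt1 were at 0 CPM in both groups of A, and Mia was at 11.9 against 13.5 CPM. Of 6 such genes, an Enpp2-rich cell had at most 2 at 10 or more counts in A and 4 in B. For the other cells these maxima were 2 and 0. Their summed level had a median of 18.8 CPM in the Enpp2-rich cells of A and 621 CPM in those of B. In the other cells of each dataset that median was 0.

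The Enpp2 threshold divided the cells with few near it. Only 1 cell had between 0.5% and 1% of its counts in Enpp2, and 2 had between 1% and 2%. Just below was the cell in well H6 of dataset A, with 0.999% Enpp2 and 78.2% Ttr. Just above were a cell of dataset B with 1.25% (well H4 of plate P1) and F6 with 1.93%. The H6 cell carried 12 of the 16 choroid epithelium markers, 8 of the 14 neuroblast markers and 7 of the 9 genes at 10 or more counts. It counts as an other cell here, and values without it are given where it decides them.

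The vitamin and hormone receptors were the most widespread of the 9 genes over the 32 Enpp2-rich cells. Folr1 reached 10 or more counts in 29 of 32 Enpp2-rich cells (90.6%, exact 95% interval 74.98% to 98.02%) and Prlr in 26 (81.2%, 63.6% to 92.8%). In the 50 other cells these numbers were 3 and 4, all in dataset A. In dataset B the lead rested on plate PL4, which held 10 of the 16 Enpp2-rich cells. Among the 6 others, Folr1, Prlr and Steap1 were each in 50%, Rdh5 in 66.7%, Krt8 in 33.3% and Ace in 16.7%. Intervals of shares and sums cover counting error only.

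Folr1 levels in single cells, in counts per 1000000 of a cell's total (CPM), ran from 123.5 through a median of 1528 to 4795 in the 16 Enpp2-rich cells of dataset A. In dataset B they ran from 0 through 798.0 to 3288. The other cells of dataset A lay between 0 and 999.5 with a median of 0, and the highest was the H6 cell. That cell lay within the range of the Enpp2-rich cells, so the groups of dataset A overlapped. The next highest other cell (well G9) was at 30.7 CPM. In dataset B all 25 other cells had 0 counts and 13 of 16 Enpp2-rich cells were above them.

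Summed over cells, Folr1 stood at 2011 CPM (exact Poisson 95% interval 1997 to 2025) in the Enpp2-rich cells of dataset A and at 87.9 CPM in the other cells, a log2 difference of 4.52. H6 gave 98.1% of the counts of the other cells, and the log2 difference was 10.09 without it. In dataset B the sums were 1077 CPM (1066 to 1088) and 0 counts. Against a floor of 3 counts over the other cells, the level was at least 18414-fold higher. Bounds of dataset B other than that of F5 depend on the H4 cell of plate P1, just above the Enpp2 threshold. With a threshold of 2%, H4 was among the other cells, and the log2 difference in B was 7.64 for Folr1 in place of 14.17 and 4.21 for Prlr in place of 13.72. It was then 3.37 to 6.14 for Ace, Steap1, Rdh5 and Krt8, and 11.17 for F5, which H4 lacked.

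Prlr levels ran from 0 through a median of 1531 to 6192 CPM in the Enpp2-rich cells of dataset A, where the E10 cell alone was at 0. In dataset B they ran from 0 through 605.8 to 2620 CPM, with 11 of 16 cells at 10 or more counts. The sums were 2036 CPM against 94.3 CPM in dataset A, a log2 difference of 4.43, and 8.79 without H6. They were 787 CPM against 0 counts in dataset B, at least 13448-fold. The groups of dataset A overlapped through E10 and H6.

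Both receptors were found together in 25 Enpp2-rich cells, 15 in A and 10 in B. Only 2 cells had neither, both on plate P3 of dataset B. One of these (well G5) had 18.2% Enpp2 and 16.7% Ttr, and yet 1 count in all over the 9 genes. It had 877 genes with a count, against a median of 1477 in the Enpp2-rich cells of its dataset.

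**Figure D1:**
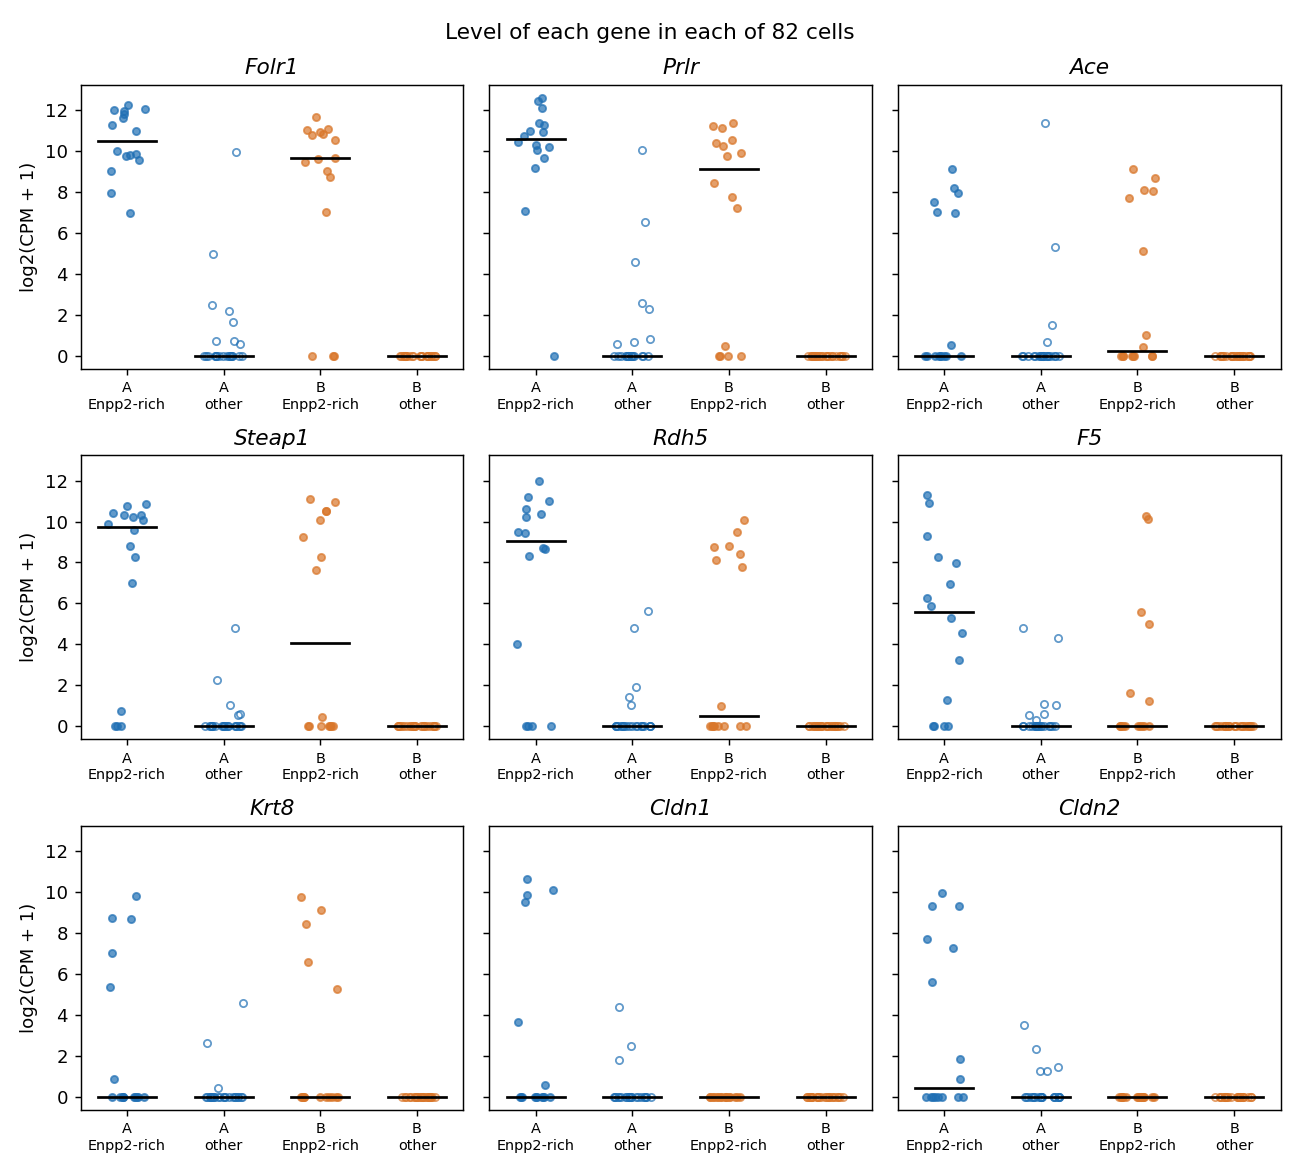
Level of each of the 9 genes in each of 82 cells as log2(CPM + 1), 1 panel per gene, with dataset A in blue and dataset B in orange, Enpp2-rich cells filled and other cells open, and a line at the median. Folr1 and Prlr are high in most Enpp2-rich cells, the other genes in part of them, and every other cell of dataset B is at 0.

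Among the enzymes, Steap1 was at 10 or more counts in 12 of 16 Enpp2-rich cells of dataset A and 8 of 16 of dataset B. Its levels ran from 0 through a median of 852.2 to 1841 CPM in A, and from 0 through 99.8 to 2217 CPM in B. Cells that had it were mostly high, with a median of 1138 CPM in A and 1273 CPM in B among cells at 10 or more counts. One other cell reached 10 counts, G9 with 47 counts (27.2 CPM), and without it the other cells of A were at 0.160 CPM. The summed level was 742 CPM against 1.18 CPM in dataset A, a log2 difference of 9.29 (7.44 with an Enpp2 threshold of 2%, which moves F6 to the other cells), and 523 CPM against 0 counts in dataset B, at least 8939-fold.

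Rdh5, whose product oxidizes 11-cis retinol in the eye, was in 12 of 16 Enpp2-rich cells of dataset A and 7 of 16 of dataset B. Its levels ran from 0 through a median of 550.6 to 4032 CPM in A and from 0 through 0.510 to 1060 CPM in B. The summed level was 1064 CPM in A and 220 CPM in B, a ratio of 4.83. The cell in well A8 gave 36.3% of the Rdh5 counts of A, and the level was 835 CPM without it. In the other cells of A the sum was 5.44 CPM, a log2 difference of 7.61. Without H6, which held 191 of their 248 counts, these were 1.37 CPM and 9.60. In dataset B those cells had 0 counts and the level was at least 3766-fold higher. Exons of Rdh5 overlap those of Bloc1s1 on the same strand, so reads of the 2 genes may be shared.

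Ace, which in blood and tissue cuts angiotensin I, was the only gene of the 9 that was not higher in the Enpp2-rich cells of every dataset where it had counts. It was at 10 or more counts in 6 of 16 Enpp2-rich cells in each dataset, at 126.6 to 555.3 CPM in A and 34.1 to 548.1 CPM in B. The medians over all Enpp2-rich cells were 0 and 0.176 CPM. Summed, it stood at 76.7 CPM in dataset A against 165 CPM in the other cells, a log2 difference of -1.11. In dataset B it stood at 100.5 CPM against 0 counts, at least 1718-fold higher.

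The level in the other cells of dataset A came from 1 cell. Well G7 held 7387 of the 7543 Ace counts (97.9%), at 2636 CPM, above every Enpp2-rich cell. Without it the other cells were at 3.65 CPM and the log2 difference was 4.40. With G7 kept, the difference was -0.08 with TMM factors, 0.15 with DESeq2 size factors, -0.17 with cells thinned to 500000 counts and -0.16 by the mean of the cells' CPM. That cell had 0.0320% Enpp2, 3 of 16 choroid epithelium markers, and at most 11 counts of any of the 8 other genes. Its microglia markers summed to 23595 CPM, the highest of all cells, with 4 of 11 at 10 or more counts. In the Enpp2-rich cells that sum reached at most 1406 CPM in A and 644.6 CPM in B. Itgam, which encodes CD11b, was under 10 counts in all 82 cells. The sort of dataset A, which holds G7, left out CD11b-positive cells. The part of microglial RNA in the Ace value was not tested.

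F5 was in 11 of 16 Enpp2-rich cells of dataset A and 4 of 16 of dataset B. Levels ran from 0 through a median of 48.2 to 2498 CPM in A and from 0 through 0 to 1221 CPM in B. A few cells held most of the counts. In A the summed level was 357 CPM, and 229 CPM without well F9. In B it was 120 CPM, and 60.2 CPM without well G4 of plate P3. The other cells of A summed to 65 F5 counts, 47 of them in G9, and the log2 difference was 7.97. Without G9 their level was 0.410 CPM in place of 1.42 CPM. In B it was at least 2058-fold higher than in the other cells, which had 0 counts. All 15 Enpp2-rich cells with F5 also had Prlr, as did 11 of the 17 without it.

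Krt8 was in 5 of 16 Enpp2-rich cells of each dataset, from 0 to 897.4 CPM in A and 0 to 851.4 CPM in B with medians of 0. The summed levels were 129 CPM in A and 137 CPM in B. Without E10, which held 2665 of the 5303 counts, the level in A was 69.2 CPM. Without well H12 of plate PL4, the level in B was 75.9 CPM. The log2 difference was 5.87 in A, and in B the level was at least 2341-fold higher than in the other cells. H6 held 91 of the 101 counts of the other cells of A, and the log2 difference was 9.07 without it. Krt8 has processed pseudogenes, antisense transcripts overlap exons of Krt8, Ace, F5 and Prlr, and a protein-coding gene on the same strand, Gm21973, overlaps exons of Prlr. How the counting treated such reads is not given in the sources used here, so these levels carry that uncertainty.

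Krt8 lay mainly in Enpp2-rich cells of lower Enpp2 share. The Spearman correlation of its level with the Enpp2 share was -0.42 over 32 cells, and -0.39 and -0.49 within datasets A and B. For Folr1 the same values were 0.64, 0.64 and 0.49, for Prlr 0.62, 0.67 and 0.43, and for F5 0.53, 0.64 and 0.35. Those of Ace were 0.39, 0.37 and 0.39. For Rdh5 they were -0.0013, 0.07 and -0.50, so in dataset B it went with a lower Enpp2 share as Krt8 did. These are descriptions, since all genes of a cell share its library and total. The median Enpp2 share was 11.8% in the 10 cells with Krt8 and 18.5% in the 22 without. The median number of genes with a count was 1648 and 1242 in the same cells, and the part of cell complexity in this was not tested. Krt18, the usual partner of Krt8 in keratin filaments, was in 19 Enpp2-rich cells, and 7 cells had both.

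Cldn1 and Cldn2 had counts in dataset A alone. Cldn1 was at 10 or more counts in 5 of its 16 Enpp2-rich cells, with 4203 counts in E9, 2696 in F5, 2394 in B12, 1300 in B9 and 14 in F6. Cldn2, which forms a pore for cations in leaky epithelia, was in 6 cells, with 2701 counts in E9, 1271 in B8, 1121 in B9, 444 in F5, 422 in A1 and 368 in A8. The E9, B9 and F5 cells had both. Of the 8 cells with either gene, 6 had 16.2% to 29.1% of their counts in Enpp2, and the others, F6 and A8, had 1.93% and 2.28%. Most Enpp2-rich cells of dataset A lay in the former range. Of these, B3, B7, F8, G4 and F9, with 18.0% to 26.1%, had neither gene at 10 or more counts.

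Summed levels in dataset A were 258 CPM for Cldn1 and 154 CPM for Cldn2, and 167 and 94.6 CPM without E9. The other cells of A had 60 and 43 counts (1.32 and 0.943 CPM, and 0.570 CPM each without G9), with log2 differences of 7.62 and 7.35. Dataset B had 0 counts of either gene in all 41 cells. For its 16 Enpp2-rich cells, 0 cells allow a share of up to 18.8% (3 cells of 16; the exact interval ends at 20.6%), and 3 counts over them would be 0.0870 CPM. No fold was computed in B, where both groups were at 0.

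Absence from 1 dataset was found in both directions. Of 957 rows at 10 or more counts in 5 or more Enpp2-rich cells of dataset A, 37 had 0 counts in those of dataset B (3.87%). Aqp1, Slc4a5 and Stra6 were among them beside Cldn1 and Cldn2. In the other direction the number was 61 of 1409 rows (4.33%). Among rows in just 5 or 6 such cells, as Cldn1 and Cldn2 were, the numbers were 29 of 407 (7.13%) and 50 of 553 (9.04%). The CD11b gate and the plates went with the dataset and cannot be told apart. The same holds for any difference in animals, which the labels do not name. Cldn2 lies on the X chromosome. Xist was at 10 or more counts in 15 of 41 cells of dataset A and none of dataset B, and Ddx3y, on the Y chromosome, in 13 of 41 cells of dataset B and none of A. Among the Enpp2-rich cells alone, Xist was in 1 of 16 in A and Ddx3y in 8 of 16 in B. The part of the sex of the animals in the Cldn2 difference was not tested.

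Promoter sequence is shown for the claudins, because they set the datasets apart, and for Ace, because it went apart from the other genes. Sequences are from RefSeq on GRCm38.p6 and cover the 250 bases before the annotated start, 5′ to 3′ on the gene's strand. RefSeq promoters were matched for 8 of the 9 genes (11 promoters). Capitals mark TATAAA, the TATA box, and TAATCC, the core bound by Otx2-type homeodomain proteins, searched on both strands (TTTATA and GGATTA on the other).
Cldn1, chr16:26371840-26372089, minus strand: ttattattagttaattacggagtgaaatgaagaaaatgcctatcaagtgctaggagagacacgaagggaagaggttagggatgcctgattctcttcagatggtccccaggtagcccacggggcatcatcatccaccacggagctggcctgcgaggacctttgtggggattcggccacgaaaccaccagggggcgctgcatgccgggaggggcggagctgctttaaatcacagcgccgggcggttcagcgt
Cldn2, chrX:139800558-139800807, plus strand: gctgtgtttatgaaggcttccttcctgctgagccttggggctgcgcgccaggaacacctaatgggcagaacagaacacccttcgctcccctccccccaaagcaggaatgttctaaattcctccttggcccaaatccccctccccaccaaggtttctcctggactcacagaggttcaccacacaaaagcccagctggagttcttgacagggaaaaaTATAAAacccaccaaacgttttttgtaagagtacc
Ace, chr11:105967698-105967947, plus strand: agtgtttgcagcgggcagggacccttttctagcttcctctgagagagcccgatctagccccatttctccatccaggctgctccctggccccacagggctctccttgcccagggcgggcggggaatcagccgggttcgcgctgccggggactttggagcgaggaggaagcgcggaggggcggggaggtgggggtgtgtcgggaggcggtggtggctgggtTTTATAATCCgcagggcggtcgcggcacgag
The Cldn2 sequence held TATAAA beginning 35 bases before the start. This Ace sequence held TTTATA beginning 31 bases before the start and TAATCC beginning 27 bases before it, and the matches overlap. RefSeq has a second Ace promoter, chr11:105974939-105975188, which held neither. The Cldn1 sequence held neither in this window. Of 32851 promoters, 12.4% held TATAAA on either strand and 6.25% held TAATCC. Among the 11 promoters of the 8 genes, 2 held the former and 1 the latter. Otx2 itself was at 10 or more counts in 11 Enpp2-rich cells (4 in A, 7 in B) and in 0 of the 50 other cells.

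**Figure D2:**
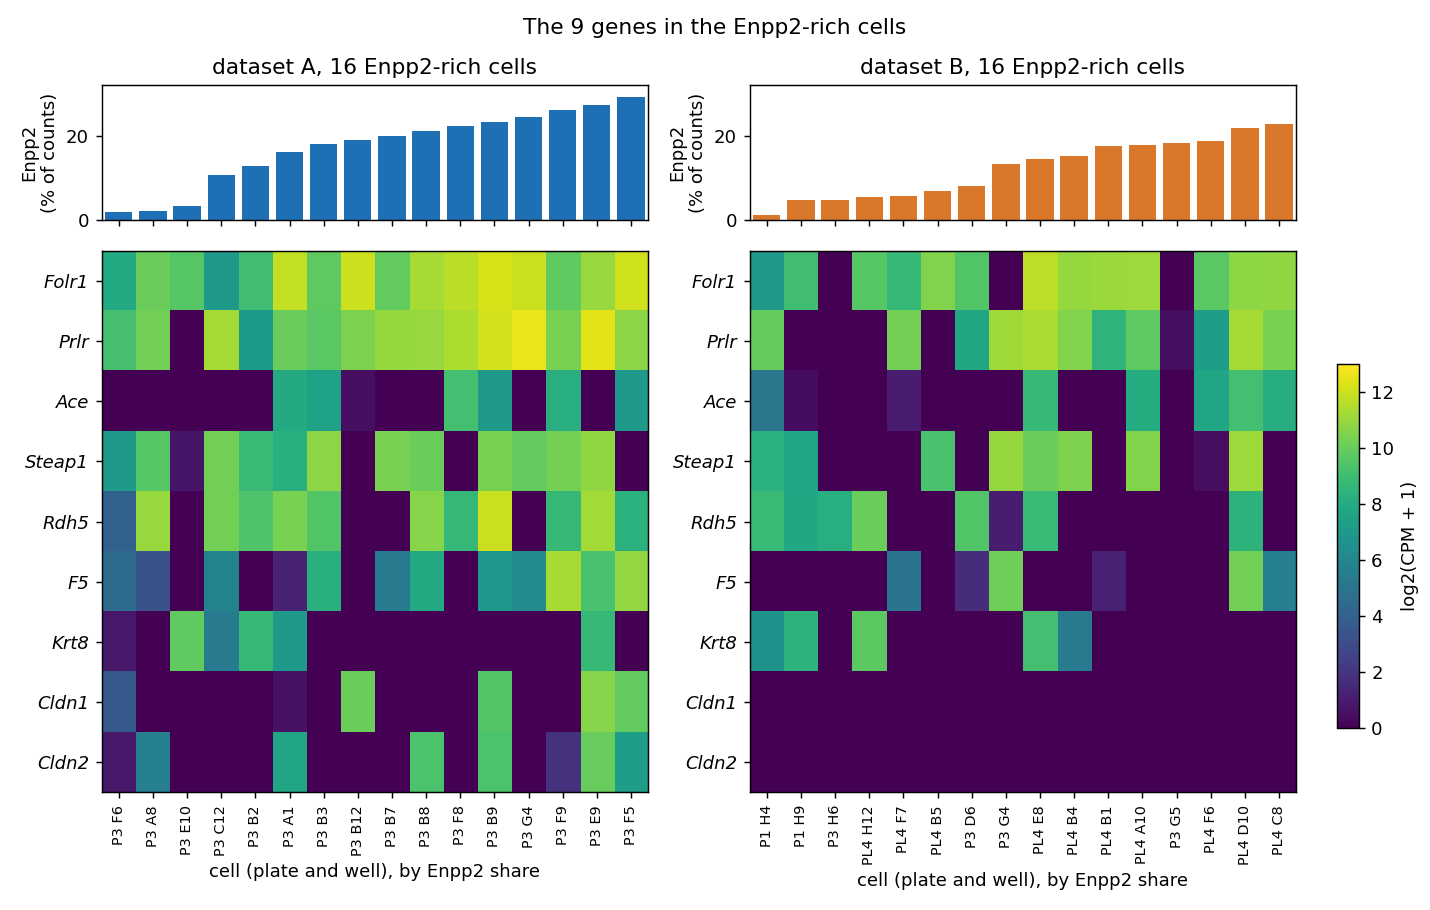
Levels of the 9 genes as log2(CPM + 1) in the 16 Enpp2-rich cells of each dataset, 1 column per cell ordered by the Enpp2 share that the bars above give in percent of counts. Krt8 lies mainly toward cells of low Enpp2 share. Folr1, Prlr, F5 and Ace lie toward cells of high share, with Ace the weakest of them in dataset A and F5 in dataset B. The Cldn1 and Cldn2 rows of dataset B are empty.

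Counted per cell, the Enpp2-rich cells of dataset A had 2 to 8 of the 9 genes at 10 or more counts, with a median of 6. Those of dataset B had 0 to 6 with a median of 3. The genes were found in many combinations, 27 different ones in 32 cells. Values were mostly either 0 or well above the minimum, with 14 of the 156 values above 0 in Enpp2-rich cells lying under 10 counts. Over the 36 pairs of genes, the Spearman correlation of levels in the 32 cells was -0.34 to 0.64 with a median of 0.25. The highest was for Cldn1 with Cldn2, and the lowest for F5 with Krt8. These values pool the datasets. Cldn1 and Cldn2 were both at 0 in all 16 Enpp2-rich cells of B, and shared zeros enter their correlation. Of the 32 cells, 3 had both at 10 or more counts, all in A, and 24 had neither. No value within A is given for pairs. The number of genes per cell had a Spearman correlation of 0.31 with the Enpp2 share in dataset A and 0.07 in B, and of -0.15 and -0.10 with the total count.

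Both datasets had cells with many of these genes. In dataset A the cells in wells E9 and B9 had 8 each, lacking Ace and Krt8 respectively. In dataset B the cells in E8 and D10 of plate PL4 and H4 of plate P1 had 6 each. By plate, the 10 Enpp2-rich cells of PL4 had a median of 3.5, the 4 of P3 a median of 2 and the 2 of P1 a median of 5. Plate P2 had no Enpp2-rich cell.

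**Figure D3:**
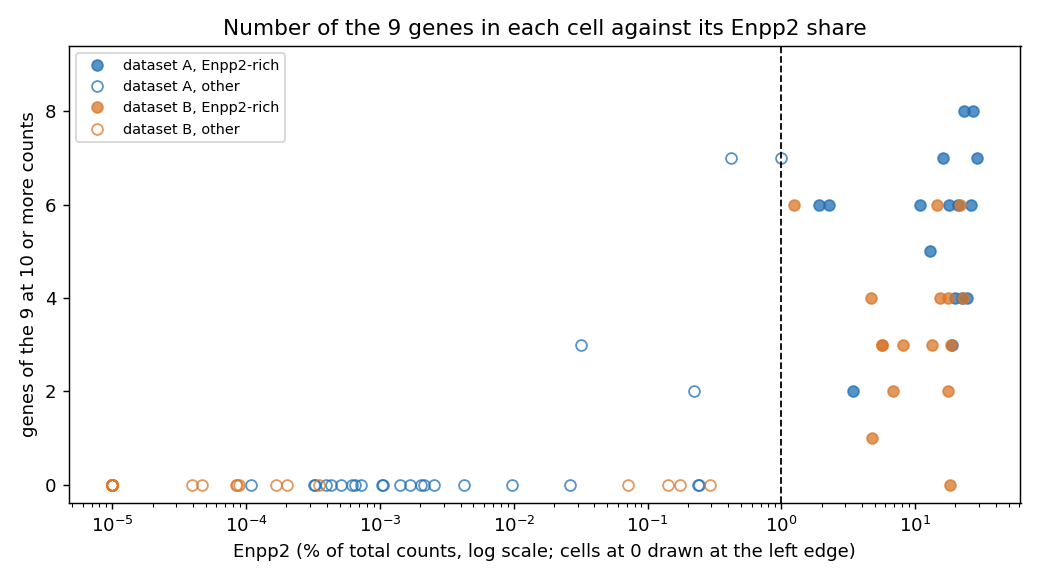
Number of the 9 genes at 10 or more counts in each cell (vertical axis) against the cell's Enpp2 share in percent of counts (log axis, dashed line at 1%), with dataset A in blue, dataset B in orange and cells below the threshold open. The open point on the line is the H6 cell at 0.999% with 7 genes, and the open point at 0.424% is G9, also with 7.

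The other cells of the 2 datasets differed in how far they lacked these genes. In dataset B all 25 had 0 counts of all 9, out of 51285241 counts in all. Of 1886 rows at 10 or more counts in 4 or more Enpp2-rich cells of dataset B, 154 had 0 counts in its other cells (8.17%). This held also for 4 cells with Enpp2 between 0.0711% and 0.292% of counts. In dataset A 12 of 25 other cells had a count, and H6, G7 and G9 held 99.6% of the 16420 counts. G9 had 7 of the 9 genes at 10 or more counts but none above 158 counts, 12 of 14 neuroblast markers, 9 of 16 choroid epithelium markers and 4197 genes with a count. The remaining 22 cells had 68 counts in all and at most 12 of any gene.

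Read against all genes, 8 of the 9 genes were 4-fold or more higher in the Enpp2-rich cells of dataset A, where 733 of 5464 rows were (13.4%), and Ace was not. All 7 genes with counts in dataset B were, where 1052 of 5650 rows were (18.6%). In both datasets at once, 6 genes passed, and 369 of 5321 rows did (6.93%). Rows that were 4-fold or more lower made up 49.2% in A and 35.9% in B. The genes were chosen for this contrast, so nothing is read from these shares. The median log2 difference was 7.35 over the 9 genes and -1.92 over all rows in A, and 11.88 over 7 genes and -0.79 over all rows in B. The values of the 7 genes in B are lower bounds. Scaling changed the balance over all rows of dataset A, from 733 higher and 2688 lower by total count to 1067 and 2221 with TMM factors and 1181 and 2140 with DESeq2 size factors. These moved the median of all rows by 1.03 and 1.26.

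Comparing the datasets within the Enpp2-rich cells, 7 of the 9 genes were at 10 or more counts in more cells of A than of B, and Ace and Krt8 in as many. Over 2353 rows at 10 or more counts in 5 or more of these cells, 27.6% were in more cells of A and 63.4% in more cells of B. The summed level of A was 1.87 times that of B for Folr1, 2.59 for Prlr, 1.42 for Steap1, 4.83 for Rdh5 and 2.97 for F5. For Ace and Krt8 it was 0.763 and 0.943. The Krt8 ratio was 0.506 without E10 and 1.70 without H12 of plate PL4, so its direction rested on 1 cell. The F5 ratio was 1.90 without F9 and 5.93 without G4 of plate P3. After thinning every cell to 500000 counts, the shares of cells for Folr1 were 100% and 81.2%, for Prlr 93.8% and 68.8%, and for F5 56.2% and 25%. With 1 sample per dataset, these differences were not tested.

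**Figure D4:**
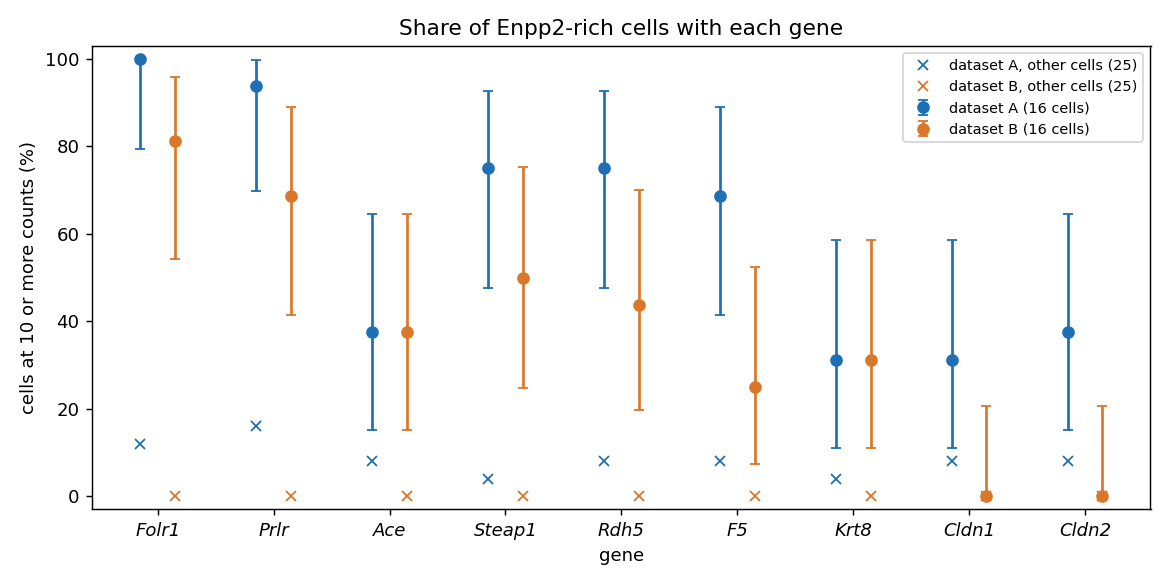
Share of cells at 10 or more counts for each gene in percent, as points with exact 95% binomial intervals for the 16 Enpp2-rich cells of each dataset (A blue, B orange), and as crosses for the 25 other cells of each. Folr1 and Prlr lead in both datasets, in B only with the cells of plate PL4, Ace and Krt8 each have the same share in A as in B, and Cldn1 and Cldn2 are at 0 in dataset B with intervals up to 20.6%.

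Levels of different genes were compared per kilobase of annotated exon. In dataset A the order was Folr1 at 305 CPM per kilobase, Steap1 at 259, Rdh5 at 204, Prlr at 110, Krt8 at 65.9, Cldn1 at 53.3, Cldn2 at 44.9, F5 at 43.3 and Ace at 13.7. In dataset B it was Steap1 at 182, Folr1 at 164, Krt8 at 69.9, Prlr at 42.4, Rdh5 at 42.2, Ace at 18.0 and F5 at 14.6. Steap1 thus stood close to Folr1 per length in spite of its lower CPM. Without replicates no spread can be given for neighbours in this order. Leaving out, for each gene, the cell with most of its counts moved some by over 1.5 times. Krt8 was then at 35.4 in A and 38.8 in B, F5 at 27.7 and 7.30, and in A Cldn1 at 34.4 and Cldn2 at 27.5. Prlr and Rdh5 in B were then at 36.1 and 28.5. The cell left out was E8 of plate PL4 for Prlr, and H12 of that plate for Krt8 and Rdh5. Without H12, Rdh5 stayed below Krt8. H12 had 0 Prlr counts, and Krt8 without it, at 38.8, lay below Prlr at 42.4 over all cells. The place of Krt8 above Prlr in B thus rested on 1 cell. Lengths are over all transcripts of a gene, 18.6 kilobases for Prlr, and which transcripts were made was not measured.

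The rows most like each gene were sought by the Spearman correlation of log2(CPM + 1) over all 82 cells, among 3244 rows. Over all cells, these correlations carry the contrast between Enpp2-rich and other cells for which the genes were picked. Ttr went into that choice, so its place among the closest rows is no separate result. Folr1 was closest to Kl (0.89), Kcnj13 (0.86) and Ttr (0.85), and Prlr to Kcnj13 (0.88), Ecrg4 (0.86) and Ttr (0.84). Kl encodes klotho and Kcnj13 a potassium channel. Steap1 was closest to Ecrg4 (0.68), 2900040C04Rik (0.67) and Kcnj13 (0.67), and Rdh5 to the carbonic anhydrase gene Car12 (0.70), Kl (0.70) and 2900040C04Rik (0.68). F5 was closest to Prlr (0.75), the thyroxine transporter gene Slco1c1 (0.72) and Ecrg4 (0.70). Ace was closest to the potassium channel subunit gene Kcne2 (0.65), Gpx8 (0.61) and Kl (0.61). Krt8 was closest to Atp5f1d (0.59), Smim22 (0.57) and Mrps21 (0.55). Cldn1 and Cldn2 were in under 10 cells and were not ranked.

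Within the 32 Enpp2-rich cells, over 1014 rows, the closest rows were others for most genes, while Atp5f1d was among those of Krt8 again. Folr1 was closest to Cd63 (0.77), Bsg (0.74) and Degs1 (0.68), and Prlr to Ctsa (0.70), Cd63 (0.67) and Clu (0.65). Ace was closest to Tmed4 (0.74), Ssr1 (0.65) and Fuca1 (0.55), and Steap1 to B4galt1 (0.58), Ctsa (0.50) and Prlr (0.47). Among the closest rows were Lars2 (0.54) and Ctsl (0.51) for Rdh5, and Manf (0.67) and Aplp2 (0.64) for F5. Krt8 was closest to Kdm6b (0.61), Atp5f1d (0.61) and Tbcb (0.59). Cells share library and total between the rows compared.

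Other genes of the same pathways were taken from lists. Against them stand the medians over all rows, -1.92 in A and -0.79 in B, and the shares of all rows 4-fold or more higher and lower, 13.4% and 49.2% in A and 18.6% and 35.9% in B. With so few rows per list, counts such as 1 higher and 3 lower of 5 lie near these shares. Of 5 tight junction rows past the filter on low counts, 3 were 4-fold or more higher and 2 lower in the Enpp2-rich cells of dataset A (median log2 difference 4.35), and 2 of 3 higher in B (9.01). Ocln, which encodes the junction protein occludin, was in 12 Enpp2-rich and 1 other cell, at 228 and 377 CPM in the Enpp2-rich cells of A and B. F11r, an adhesion molecule of the same junctions, was in 10 and 2 cells. Cldn9 was in 3 Enpp2-rich cells, all of dataset A, while Cldn12 was in 2 and Tjp3, a junction scaffold gene, in 3, all of dataset B. Of 6 cells with Cldn2 and 12 with Ocln, 2 had both.

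Adherens junction and keratin genes were 1 higher and 3 lower of 5 in dataset A (median -6.76) and 2 higher and 1 lower of 5 in B (1.30). Krt18, which is also in the list of choroid epithelium markers, stood at 236 and 788 CPM in the Enpp2-rich cells of A and B, and was in 1 of the 50 other cells. Folate genes were 1 higher of 4 in A (median -0.43) and 1 higher and 1 lower of 4 in B (0.81). The one in A was Ggh, a hydrolase of folate polyglutamates, in 12 Enpp2-rich and 3 other cells. Slc46a1, the proton-coupled folate transporter, was in 4 Enpp2-rich cells, all of dataset A, and in 4 other cells.

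Prolactin and growth hormone signalling genes had 0 higher and 1 lower of 3 in each dataset (medians -0.59 and -1.31). Of the renin-angiotensin and peptidase list, only Atp6ap2 passed the filter on low counts. It was 7.85-fold higher in A and 1.55-fold higher in B, and was in 18 Enpp2-rich and 10 other cells. Metalloreductase, iron and copper genes were 3 higher and 1 lower of 8 in A (median 1.68) and 6 higher of 8 in B (3.29). Trf, which encodes transferrin, was at 2368 and 881 CPM, and Slc31a1, a copper importer, at 1232 and 922 CPM, in the Enpp2-rich cells of A and B. Steap2, a relative of Steap1, was in 6 Enpp2-rich and 3 other cells.

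Retinoid genes were 2 higher and 1 lower of 5 in A (median -0.44) and 3 higher and 1 lower of 4 in B (7.62). Stra6, a membrane receptor for vitamin A uptake, was in 7 Enpp2-rich cells, all of dataset A. Coagulation genes were 2 higher and 1 lower of 3 in A (median 3.37) and 1 higher and 1 lower of 2 in B (-3.20). Mcfd2 and Lman1, whose products together carry factor V out of the endoplasmic reticulum, were in 9 and 6 Enpp2-rich cells of dataset A and in 2 and 0 of dataset B.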

How the data were processed

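The table deposited by the authors holds counts, unnormalized, since its values are whole and cell totals differ. Per the submitters' processing notes, FastQC 0.12.1, STAR 2.7.10b, featureCounts and Subread 2.1.1 were used and the builds GRCm39 and mm10 are named, with no roles given. Per the labels' protocols, single cells were reverse transcribed with a template-switching oligo and the cDNA was amplified, and molecular identifiers are not mentioned, so reads are not independent molecules. Filters on genes and cells, and use of strand, are not given in the sources used here.

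Counts were scaled to 1000000 per cell or per sum of cells (CPM). A gene was counted as present in a cell at 10 or more counts. Enpp2-rich cells (Enpp2 at or above 1% of counts) and other cells were summed within each dataset. Where a sum was under 3 counts it was set to 3, and the fold is then a lower bound. All rows at 10 or more counts in 5 or more cells (5793 rows, all 9 genes included) gave the comparison with all genes. Cells are not replicates and each dataset counts as 1 sample, so no p-value is given. All 82 cells were kept, and doublets were not called. Exon lengths came from GENCODE on GRCm39. The summing of pools was tested on simulated data. Tools were Python 3.11.15, numpy 2.4.6, pandas 2.3.3, scipy 1.17.1 and matplotlib 3.10.9, with R 4.3.3, edgeR 4.0.16 (TMM factors) and DESeq2 1.42.0 (size factors) for scaling alternatives.

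The genes named besides the 9 are, per gene, the 3 rows with the highest Spearman correlation among rows at 10 or more counts in 10 or more cells, and genes of the pathway lists. Some of these are not reported here. The genes, lists and grouping were chosen with earlier results of these data known. Alternatives were other scalings, thinning, Enpp2 thresholds of 0.5% and 2%, count minimums of 1 and 50, folds of 2 and 10, and leaving out cells or plates.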

Additional observations from a re-analysis of the deposited data

Results flagged for a closer look

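The summed level of Ace differed between the groups in opposite directions in the 2 datasets, with a log2 difference of Enpp2-rich over other cells of -1.11 in dataset A and at least 10.75 in dataset B. The difference between datasets was not tested, since each counts as 1 sample. In dataset A the direction rests on the cell in well G7, and the value without it was 4.40. With it, other scalings, thinning and the mean of the cells' CPM gave values from -0.42 to 0.15.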

How the results depend on the processing

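No paired analysis was possible because the cells could not be tied to the labelled samples and no test was run. Leaving out the G7 or the H6 cell was chosen after seeing the data, and the other alternatives were planned. The counts of genes 4-fold or more higher, 8 in dataset A and 7 in dataset B, stayed within 1.5 times under every alternative run, with 9 in A without G7 as the one change. The median share of cells per gene (68.8% in A, 37.5% in B) and the median number of genes per cell (6 and 3) stayed within their intervals or within 1.5 times. The median log2 difference over the genes in dataset A, 7.35, became 8.04 with Ttr and Enpp2 out of the total, 8.38 with TMM factors, 8.62 with DESeq2 size factors, 8.93 without the deepest cell of each pool, 8.79 without H6, and 8.73 with an Enpp2 threshold of 0.5% or of 1% of counts without Ttr, both of which place H6 among the Enpp2-rich cells. In dataset B, 11.88 became 12.20, 12.05 and 11.98 under the same 3 scalings, 9.88 with cells thinned, 11.99 without cells under 1000 genes, 10.72 without plate P1, 11.45 without plate P2 and 5.31 with an Enpp2 threshold of 2%, which places the H4 cell among the other cells. The values of B without the 2% threshold are bounds and move with the size of the pools. Ace in dataset A turned from -1.11 to 0.15 with DESeq2 size factors and to 4.40 without G7, and the cause of the former was not tested. Without a filter on low counts, 14.7% of rows in A and 20.5% in B were 4-fold or more higher. Shares of 16 cells have wide intervals, and a gene absent from a cell may have been missed at this depth.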

Other observations

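Among the 37 genes found in 5 or more Enpp2-rich cells of dataset A and at 0 counts in those of dataset B were the following, named after their values were seen. Col9a3, which encodes a collagen IX chain, was in 8 such cells with 10174 counts in all, and Slc4a2, an anion exchanger gene, in 8 with 10893, against 3361 in the other cells of A. Frem1, a basement membrane protein gene, was in 7 with 11759 counts, but other cells of dataset A held 5918. Sfrp1, which encodes a secreted Wnt antagonist, was in 6 with 7460 counts, against 28 in the other cells of A. Igf2 was in 8 cells with 340 counts. The other cells of dataset B had 0 counts of Col9a3, Frem1, Sfrp1 and Igf2, and 3653 of Slc4a2.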
